A study of Mus musculus with 4 samples.

Results

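Lyz1, Itln1, Ang4, Mmp7, Mptx1, Mptx2, Pla2g2a, Nupr1, Habp2 and Cd24a were listed together as Paneth cell genes other than the alpha-defensins. This is the name of the list, and not every gene of it followed Lyz1 in these libraries. These 10 genes were taken by name from the 55487 genes of the deposited tables, each symbol matched 1 Ensembl gene of the GENCODE vM21 annotation, and all 10 passed the filter on low counts, which kept 14165 genes. The RNA was taken from sorted crypt cells of mice 6 to 12 weeks old that were not treated and whose genotype was Lgr5-EGFP-IRES-creERT2, so that the stem cell gene Lgr5 marks cells with a fluorescent protein. The small-intestinal group (SISC) was Lgr5-EGFP+/CD24- and came from pieces near the pylorus and near the cecum. The large-intestinal group (LISC) was Lgr5-EGFP+, with no CD24 gate named, and came from the stretch between cecum and rectum. Intestine and CD24 gate thus changed together and cannot be told apart in any difference between the groups. Each group held 2 libraries. The labels do not say whether the libraries came from separate animals or how many animals were pooled, and the p-values below rest only on how far these libraries spread, which may be a technical spread.

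Paneth cells sit at the base of small-intestinal crypts, wedged between the Lgr5 stem cells, and release granules of antimicrobial proteins into the crypt lumen. The healthy large intestine has no classical Paneth cells, and goblet-like cells of its crypt base, called deep crypt secretory cells, sit next to its stem cells instead. Lyz1 encodes lysozyme, which cuts bacterial cell walls. Itln1 encodes a lectin that binds microbial sugars, Ang4 an antimicrobial protein of the ribonuclease A family, and Pla2g2a a secreted phospholipase that attacks bacterial membranes. Mmp7 encodes matrilysin, the protease that activates mouse alpha-defensins. Mptx1 and Mptx2 encode mucosal pentraxins, relatives of C-reactive protein. Nupr1 encodes a stress-induced nuclear protein and Habp2 a hyaluronan-binding serine protease. Cd24a encodes the surface protein CD24, which is high on Paneth cells and served as the gate that SISC had to be negative for, so its level is a check of the sort and not a finding between groups.

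The totals of expected counts were 16490485 (replicate 1) and 27227715 (replicate 2) for SISC, and for LISC they were 12795434 (replicate 1) and 24142212 (replicate 2). The libraries of each group stood apart in rRNA content, since rRNA genes took 31.8% and 36.6% of counts in the replicate 1 libraries of SISC and LISC and 0.246% and 0.304% in the replicate 2 libraries. Values are therefore also given within each replicate number, where each is a difference between single libraries with no test. The 7 stem cell markers (Lgr5, Ascl2, Smoc2, Axin2, Slc12a2, Rnf43 and Znrf3) were read in every library, with summed levels of 2234 and 2580 CPM (counts divided by the TMM-scaled library size) in SISC and 1657 and 1357 CPM in LISC. In these bulk libraries fewer cells with a given RNA and less of that RNA per cell cannot be told apart. Whether Paneth cells were among the sorted cells was not tested.

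Most of these genes were read at higher levels in both SISC libraries than in both LISC libraries, with the 2 mucosal pentraxin genes lying in opposite directions. Together the 10 genes took 0.594% and 0.140% of all counts in the SISC libraries and 0.0328% and 0.0900% in the LISC libraries. Without Cd24a, the gate gene, they summed to 5590 and 959 TPM in SISC and 50.7 and 502 TPM in LISC, and Mptx1 made up 383 TPM of the last value. In both SISC libraries 7 genes (Lyz1, Itln1, Ang4, Mmp7, Mptx2, Pla2g2a and Habp2) lay above both LISC libraries in CPM, as 18.4% of all genes tested did. Mptx1 alone lay higher in both LISC libraries, as 21.9% of all genes tested did, and Nupr1 and Cd24a overlapped. By edgeR's quasi-likelihood test with Benjamini-Hochberg adjustment over all genes, 0 of the 10 were called at an adjusted p below 0.05, where 2.20% of all genes were (0.741% higher in SISC and 1.45% higher in LISC). At an unadjusted p below 0.05, 7 were higher in SISC (4.67% of all genes) and 1 in LISC (8.73%), against 13.4% of all genes in either direction. DESeq2 called 7 of the 10 (6.96% of the 16557 genes that it gave an adjusted p), 6 higher in SISC (2.32%) and Mptx1 higher in LISC (4.64%). With limma-trend on log2(TPM + 1), where TPM are transcript abundances scaled by gene length and library total, 8 were called (3.71% of all genes), 7 higher in SISC (1.21%) and Mptx1 higher in LISC (2.49%). The median log2 difference of LISC over SISC was −4.49 over the 10 genes and −0.02 over all genes tested. It was −5.76 within replicate 1 and −2.18 within replicate 2. Leaving out 1 library at a time, edgeR called 3 genes without SISC replicate 1 (Itln1, Mmp7 and Mptx2) and 5 without SISC replicate 2 (those and Habp2 and Pla2g2a), where 3.18% and 2.18% of all genes were called. It called 3 without LISC replicate 1 (Lyz1, Mptx1 and Mptx2) and 2 without LISC replicate 2 (Mptx1 and Mptx2), where 2.36% and 1.69% of all genes were called.

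**Figure D1:**
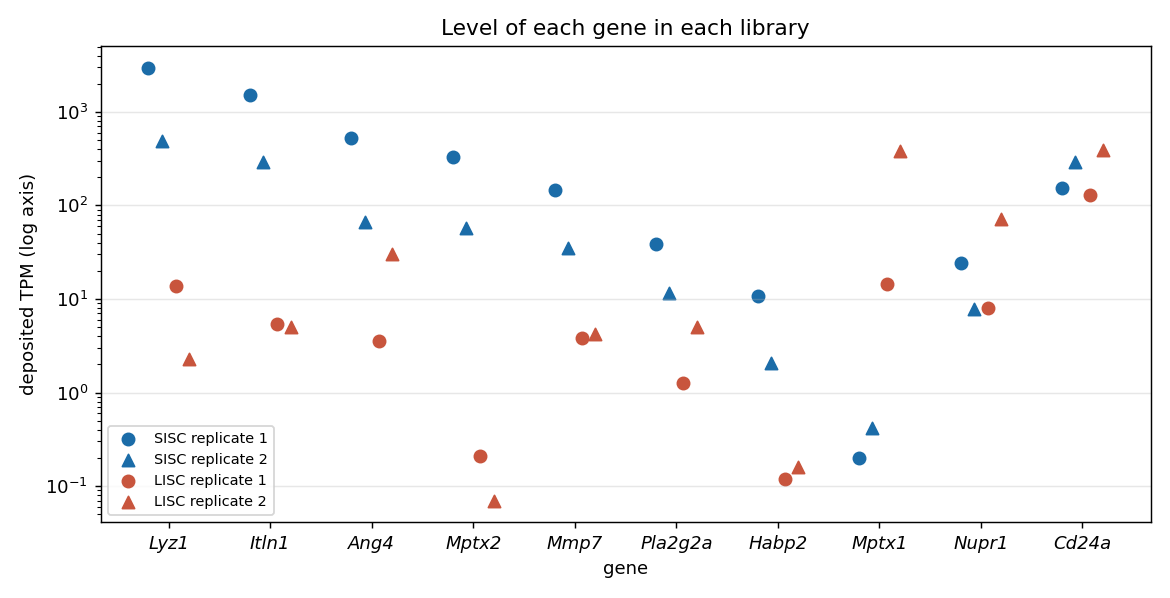
Deposited TPM (log axis) of each gene in the 2 SISC and 2 LISC libraries, 1 point per library. Lyz1 and Itln1 are highest in SISC, Mptx1 is the only gene with both LISC points above both SISC points, and Cd24a has its 4 points between 129 and 392 TPM.

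Lyz1 (ENSMUSG00000069515; chromosome 10, 117287797 to 117292868, minus strand, GRCm38) was the most abundant of the 10 genes in both SISC libraries per length. It was read at 2976 and 483 TPM in SISC replicates 1 and 2 and at 13.8 and 2.26 TPM in LISC replicates 1 and 2. Both SISC libraries were far above both LISC libraries, and replicate 1 was the higher library in each group. In CPM the libraries held 4147 and 445 in SISC and 22.8 and 1.92 in LISC. The log2 difference of LISC over SISC was −7.55 ± 1.91 (SE, n = 2 libraries per group), 187-fold lower in LISC, and it did not pass the test (edgeR adjusted p = 0.158).

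Itln1 (ENSMUSG00000038209; chromosome 1, 171518122 to 171535294, minus strand) came next in SISC, at 1534 and 295 TPM, against 5.40 and 5.05 TPM in LISC. The LISC libraries were close to each other in TPM, while SISC replicate 1 was again the higher SISC library. Its log2 difference was −7.50 ± 1.32 (edgeR adjusted p = 0.0730). Mmp7 (ENSMUSG00000018623; chromosome 9, 7692090 to 7699585, plus strand), whose product activates the defensins, was read at 147 and 35.4 TPM in SISC and at 3.87 and 4.24 TPM in LISC. The groups did not overlap, and the log2 difference was −4.56 ± 1.0 (edgeR adjusted p = 0.119).

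Ang4 and Pla2g2a, an antimicrobial ribonuclease and a phospholipase, had a LISC library close to SISC. Ang4 (ENSMUSG00000060615; chromosome 14, 51763878 to 51773590, minus strand) was read at 530 and 66.3 TPM in SISC and at 3.52 and 30.6 TPM in LISC. LISC replicate 2 was thus within a small multiple of SISC replicate 2, while LISC replicate 1 was far below both SISC libraries. The log2 difference was −4.43 ± 1.39 over all libraries (edgeR adjusted p = 0.244), −6.84 within replicate 1 and −1.23 within replicate 2. Pla2g2a (ENSMUSG00000058908; chromosome 4, 138831857 to 138835186, plus strand) was read at 39.1 and 11.6 TPM in SISC and at 1.25 and 5.08 TPM in LISC, the same order of libraries as Ang4. Its log2 difference was −3.44 ± 1.01 (edgeR adjusted p = 0.216), and −5.36 and −1.26 within replicates 1 and 2. The annotation types Pla2g2a as a polymorphic pseudogene, a gene that is inactive in the reference strain and intact in some others. The sources used here do not give the strain background of these mice.

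The mucosal pentraxin genes divided by group. Mptx2 (ENSMUSG00000079180; chromosome 1, 173274382 to 173277777, minus strand) was read at 328 and 57.7 TPM in SISC and at 0.210 and 0.0700 TPM in LISC, where it had 2 and 1 counts. Mptx1 (ENSMUSG00000026531; chromosome 1, 174330518 to 174332873, plus strand) was read at 0.200 and 0.420 TPM in SISC, with 2 and 7 counts, and at 14.5 and 383 TPM in LISC. Of the counts of the pair, Mptx1 took 0.0628% (0.0172 to 0.229%, Wilson 95% interval) and 0.725% (0.350 to 1.48%) in SISC and 98.6% (95.1 to 99.6%) and 99.98% (99.9 to 99.997%) in LISC. These intervals cover counting error only, since reads without molecular identifiers are not independent molecules. The share was at opposite ends of the scale in the 2 groups in both replicate numbers. The summed level of the pair varied within each group: 232 and 30.3 CPM for SISC, 13.3 and 186 CPM for LISC.

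For Mptx2 the log2 difference was −10.57 ± 1.60 (edgeR adjusted p = 0.0536), and the ratio of pooled counts, SISC over LISC, was 1205 (412 to 5847, exact 95% interval for counting error). For Mptx1 it was 8.98 ± 1.68 (edgeR adjusted p = 0.0847) and the ratio of pooled counts, LISC over SISC, was 709.5 (373 to 1552), with 14.2 times as much CPM in LISC replicate 2 as in LISC replicate 1. Within replicates 1 and 2 the values were −10.29 and −9.77 for Mptx2 and 6.50 and 9.74 for Mptx1. Over all 4 libraries both genes missed the threshold in this edgeR fit, and both passed it with DESeq2 and with limma-trend on log2(TPM + 1). Mptx2 passed in each fit that left out 1 library (log2 −11.70 to −8.48), and Mptx1 passed without LISC replicate 1 (9.88) or LISC replicate 2 (6.08).

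Mptx1 and Mptx2 are close copies on the same chromosome, 1053 kb apart, so both the separation of their reads and the sequence before their starts bear on this division. Their GENCODE transcripts were 92.4% identical over 794 aligned bases, and 17.9% of the distinct 50-base words of Mptx1 also occurred in Mptx2. RSEM's posterior standard deviation of the count, which reports how uncertain the division of shared reads was, was at most 0.230 counts for either gene in any library. The stretches before the annotated starts are shown from RefSeq (GRCm38.p6) because the 2 genes were higher in opposite groups. They were 86.4% identical over 228 aligned bases with 31 mismatches. The identity leaves out unpaired bases, 7 in Mptx1 and 1 in Mptx2, and the pairing starts at base 16 of Mptx1. Mptx1 is given for chr1:174330268-174330517 (plus strand) and Mptx2 for chr1:173277778-173278006 (minus strand), and capitals mark the bases that differ between the paired positions. Unpaired bases are in lower case too, so lower case does not always mean a shared base.
Mptx1: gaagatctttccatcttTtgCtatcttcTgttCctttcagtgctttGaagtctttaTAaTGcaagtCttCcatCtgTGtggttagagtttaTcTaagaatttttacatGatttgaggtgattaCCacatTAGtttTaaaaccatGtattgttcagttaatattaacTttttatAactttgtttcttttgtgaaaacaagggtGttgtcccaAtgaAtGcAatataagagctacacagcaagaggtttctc
Mptx2: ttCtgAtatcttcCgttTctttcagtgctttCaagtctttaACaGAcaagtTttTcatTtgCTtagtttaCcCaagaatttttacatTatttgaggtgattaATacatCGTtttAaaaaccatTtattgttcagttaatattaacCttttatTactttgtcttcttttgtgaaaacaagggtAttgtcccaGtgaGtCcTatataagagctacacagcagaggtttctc
The copies share long runs up to the start, the longest being 21 bases, and the mismatches are spread over the window. No peaks or methylation values were analysed here, so these letters are a description of the loci.

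Short motifs known from intestinal gene regulation were searched on both strands in the 250 bases before the RefSeq start of the 8 genes with a promoter entry (Lyz1, Itln1, Ang4, Mmp7, Mptx1, Mptx2, Nupr1 and Habp2). The letters CTTTGAT (TCF/LEF) were in 0 of the 8 and in 3.21% of all 32851 windows of the table. The core TATA box, searched as TATAAA, was found before 2 genes, Mptx1 and Mmp7, and in 12.4% of all windows. Both Mptx1 matches were on the strand opposite to the gene, and both Mmp7 matches on the strand of the gene. The variant TATAAG, which stands near the end of both the Mptx1 and the Mptx2 stretch printed above, was not searched. The search thus does not show that Mptx1 has a TATA box or that Mptx2 lacks one. The GATA factor motif, searched as AGATAA, was found before Mptx1 and Mmp7 and in 9.99% of all windows. Itln1 alone held the CDX motif, searched as TTTATG (10.8% of all windows). Nupr1 alone held the E-box searched as CAGCTG (13% of all windows). CAGCTG reads the same on both strands, and no match of 1 motif overlapped a match of another in these windows. The Mmp7 window is shown because this gene held 2 of the motifs, chr9:7691840-7692089 (plus strand), with motif letters in capitals.
Mmp7: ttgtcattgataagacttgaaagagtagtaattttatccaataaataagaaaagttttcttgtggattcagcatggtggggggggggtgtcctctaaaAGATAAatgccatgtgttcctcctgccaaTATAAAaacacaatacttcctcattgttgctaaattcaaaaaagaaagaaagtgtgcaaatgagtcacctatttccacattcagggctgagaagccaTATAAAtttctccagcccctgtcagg
The TATAAA match nearest the start of Mmp7 began 26 bases before it. The AGATAA match began 152 bases before it.

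Habp2 (ENSMUSG00000025075; chromosome 19, 56287137 to 56320822, plus strand), the hyaluronan-binding protease gene, was the least abundant gene with a clear SISC level. It was read at 10.7 and 2.07 TPM in SISC and at 0.120 and 0.160 TPM in LISC, where it had 3 and 4 counts (exact 95% Poisson intervals of 0.619 to 8.77 and 1.09 to 10.2 counts). The log2 difference was −6.44 ± 1.39 (edgeR adjusted p = 0.117), and the ratio of pooled counts, SISC over LISC, was 64.9 (31.3 to 162). Nupr1 (ENSMUSG00000030717; chromosome 7, 126623249 to 126630861, minus strand), the stress-induced gene, did not divide by group. It was read at 24.0 and 7.90 TPM in SISC and at 8.03 and 71.6 TPM in LISC, so that LISC replicate 2 was the highest library and LISC replicate 1 lay among the SISC libraries. Its log2 difference was 1.07 ± 0.93 (edgeR adjusted p = 0.840), with −1.01 within replicate 1 and 3.11 within replicate 2, and it became −0.29 without LISC replicate 2.

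Cd24a (ENSMUSG00000047139; chromosome 10, 43578284 to 43584265, plus strand) was abundant in every library, the gated ones included. Per length, the libraries held 155 and 293 TPM in SISC and 129 and 392 TPM in LISC. The groups overlapped, and within each replicate number LISC and SISC were close, with log2 differences of CPM of −0.06 and 0.31. The fitted log2 difference was 0.15 ± 0.39 and became −0.18 without LISC replicate 2. SISC replicate 1, the library with the most Lyz1, held less Cd24a RNA per length than SISC replicate 2. In CPM these libraries were closer, at 341 in SISC replicate 1 and 407 in SISC replicate 2.

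**Figure D2:**
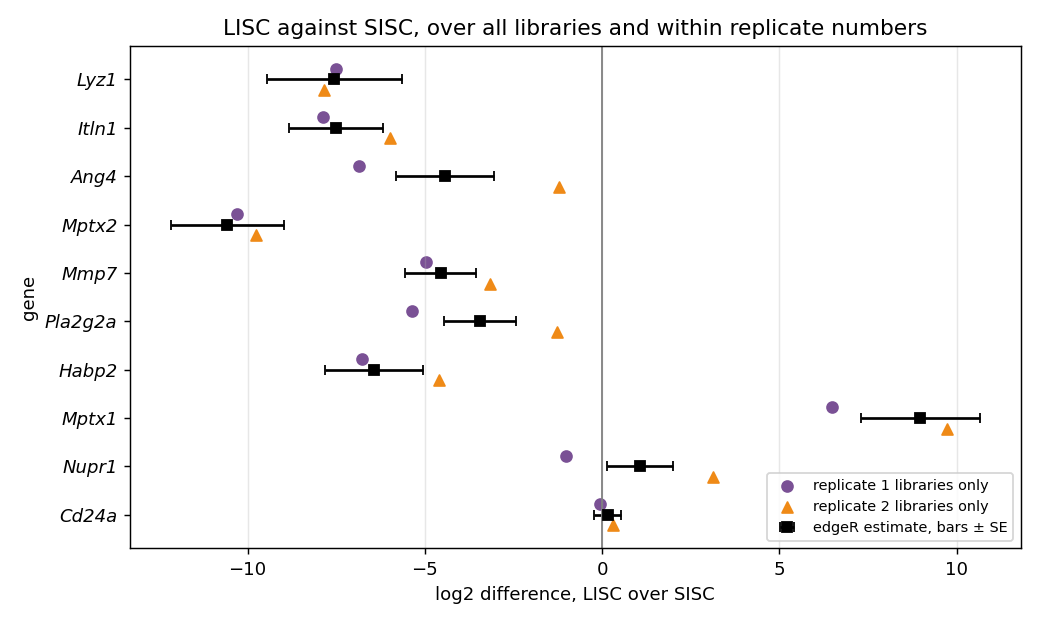
Log2 difference of LISC over SISC for each gene: squares are edgeR estimates over all 4 libraries with bars of ± 1 SE, circles and triangles the single-library differences within replicate numbers 1 and 2. Mptx1 lies between 6.50 and 9.74, Mptx2 near −10, and the circle and triangle of Nupr1 fall on opposite sides of 0.

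Within replicate numbers, 7 genes were lower and Mptx1 was higher in LISC both times. These are the genes whose groups did not overlap in CPM, so both directions follow from that and are no further evidence. Lyz1 gave −7.51 and −7.85 on the log2 scale within replicates 1 and 2, while its level differed 9.33-fold between the SISC libraries and 11.8-fold between the LISC libraries. Itln1 gave −7.89 and −5.98, Habp2 −6.76 and −4.59, and Mmp7 −4.97 and −3.17. For these 3 genes and for Ang4, Pla2g2a and Mptx2 the difference was the smaller one within replicate 2, and for Lyz1 and Mptx1 within replicate 1.

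The libraries of a group differed widely in these genes. In SISC, replicate 1 exceeded replicate 2 in CPM by 10.4-fold for Ang4, 9.33-fold for Lyz1, 9.12-fold for Habp2, 7.75-fold for Itln1, 7.69-fold for Mptx2, 6.10-fold for Mmp7, 5.28-fold for Pla2g2a and 4.21-fold for Nupr1. An excess past 4-fold was shared by 4.16% of all genes tested. Mptx1, at 2 and 7 counts, and Cd24a were not among these genes. In LISC the 10 genes split: replicate 1 was higher by 11.8-fold for Lyz1, 5.39-fold for Mptx2, 2.06-fold for Itln1, 2.02-fold for Habp2 and 1.76-fold for Mmp7, and replicate 2 by 14.2-fold for Mptx1, 4.73-fold for Ang4, 4.13-fold for Nupr1, 3.23-fold for Pla2g2a and 1.54-fold for Cd24a. Mmp7 and Habp2 were slightly higher in LISC replicate 2 in TPM, so their order in LISC depends on the scale. Past 4-fold, 2.44% of all genes tested were higher in LISC replicate 1 and 1.90% in LISC replicate 2.

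**Figure D3:**
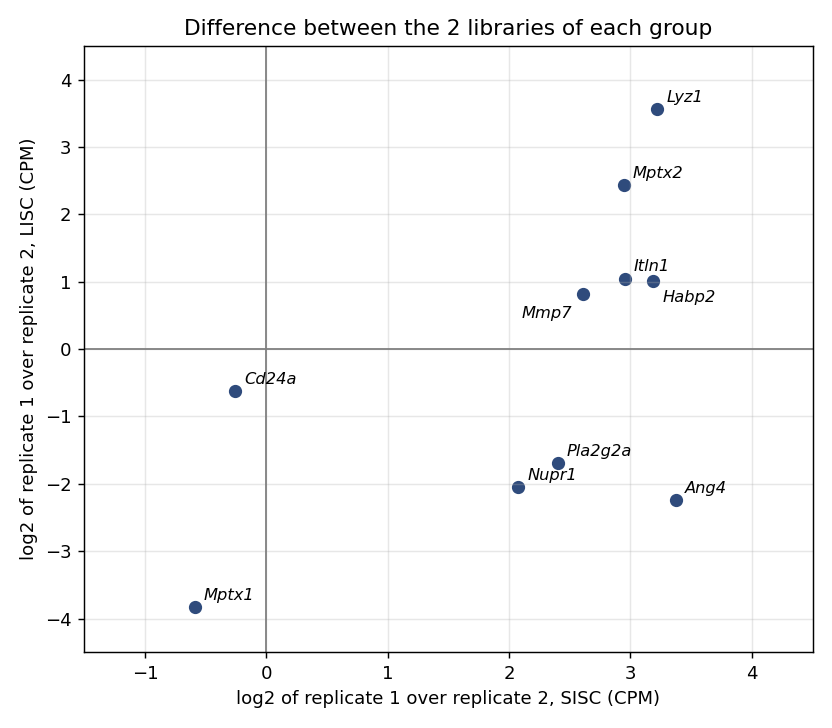
Log2 ratio of replicate 1 over replicate 2 in SISC (horizontal) and in LISC (vertical), from CPM, 1 point per gene. Most genes lie at 2 to 4 on the SISC axis, and on the LISC axis they part into Lyz1, Mptx2, Itln1, Habp2 and Mmp7 above 0 and Ang4, Nupr1, Pla2g2a, Cd24a and Mptx1 below it.

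Summed markers of several other crypt cell types also differed between the libraries of a group. In SISC, the summed CPM was higher in replicate 1 than in replicate 2 by 6.53-fold for 10 Paneth markers (5 of them among the genes described here, and 5 alpha-defensins), 6.02-fold for 7 enteroendocrine markers, 4.83-fold for 8 goblet markers, 4.55-fold for 5 tuft markers and 3.17-fold for 5 deep crypt secretory markers. Every marker of these 5 lists was higher in SISC replicate 1. For 7 stem cell markers the same ratio was 0.866 (2 of 7 higher in replicate 1) and for 7 enterocyte markers 0.826 (3 of 7). In LISC, replicate 2 over replicate 1 was 3.13 for the deep crypt secretory list (4 of 5 markers higher). Dll4 went the other way, at 34.2 CPM in LISC replicate 1 and 24.4 CPM in LISC replicate 2. The same ratio was 1.70 for the goblet list (8 of 8 markers higher), 1.76 for the tuft list (5 of 5) and 1.55 for the enterocyte list (7 of 7). It was 1.02 for the enteroendocrine list (1 of 7 higher), 0.490 for the Paneth list (2 of 10) and 0.819 for the stem cell list (0 of 7). Reg4, the marker gene of deep crypt secretory cells, was read at 617 and 2796 CPM in LISC replicates 1 and 2, and at 88.4 and 17.9 CPM in SISC. The part of these markers in the differences between libraries was not tested. Blood and connective tissue markers were low: T cell markers (4) summed to 0.218 to 0.894 CPM, stroma markers (6) to 0.0728 to 1.24 CPM, myeloid markers (6, Lyz2 among them) to 4.06 to 7.57 CPM, and B and plasma cell markers (4) to 0.741 to 1.60 CPM. The leukocyte gene Ptprc was read at 0.364 to 4.78 CPM.

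**Figure D4:**
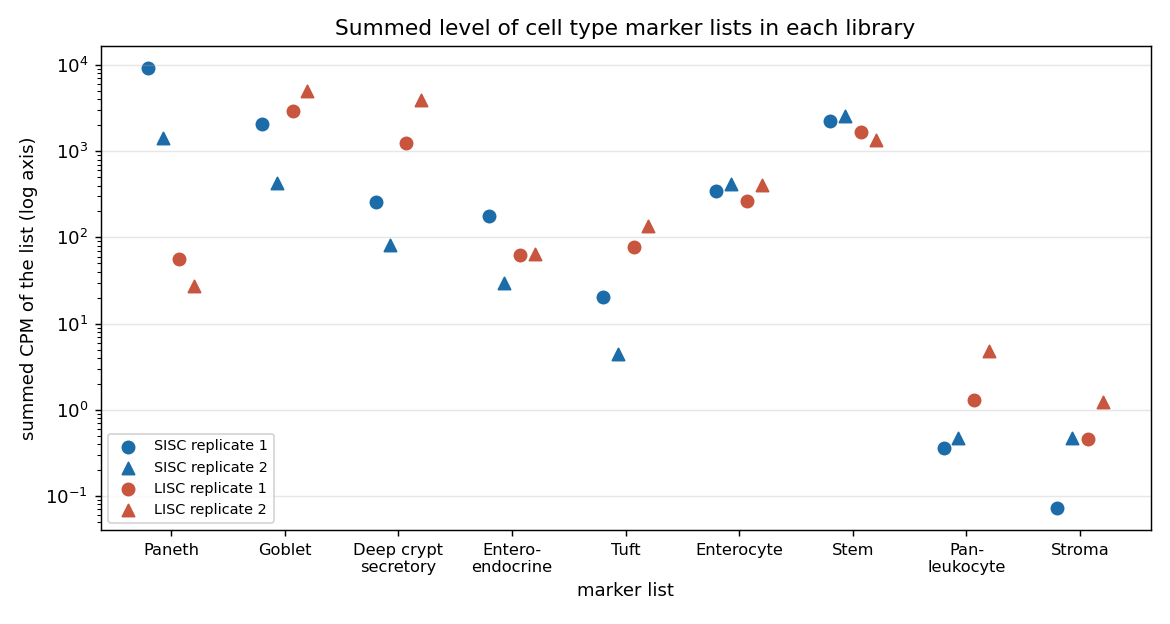
Summed CPM (log axis) of marker lists in each library, 1 point per library. The Paneth list lies at 9235 and 1413 CPM in SISC and at 56.2 and 27.5 CPM in LISC, and the deep crypt secretory list at 256 and 80.7 CPM in SISC and at 1243 and 3891 CPM in LISC.

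The order of levels per length also differed between the groups. From high to low TPM, SISC replicate 1 read Lyz1, Itln1, Ang4, Mptx2, Cd24a, Mmp7, Pla2g2a, Nupr1, Habp2 and Mptx1, and SISC replicate 2 kept this order except that Cd24a stood before Ang4. Cd24a and Mmp7 in replicate 1 (155 and 147 TPM) and Itln1 and Cd24a in replicate 2 (295 and 293 TPM) were close neighbours. In LISC, Cd24a and Mptx1 led both libraries. Lyz1 came right after them in LISC replicate 1, and in LISC replicate 2 only Habp2 and Mptx2 were below it. Relative to Lyz1, Mptx2 stood at 11.0% and 11.9% of its TPM in SISC, and at 1.53% and 3.10% in LISC. Mmp7 stood at 4.94% and 7.32% of the Lyz1 TPM in SISC and at 28.1% and 188% in LISC. Itln1 stood at 51.5% and 61.0% in SISC and at 39.2% and 223% in LISC. For Cd24a the same share was 5.19% and 60.6% in SISC, so its proportion to Lyz1 differed between the SISC libraries. These ratios were not tested.

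Close relatives of the genes were read at other levels in the same libraries. Lyz2, the lysozyme gene of macrophages, lies 5.48 kb from Lyz1 and had 5, 3, 0 and 0 counts, although the transcripts of the 2 genes were 96% identical. No library had over 5 counts of this myeloid marker. The intelectin relative Itlnb had no matching symbol. Among ribonuclease A genes, Ang2, Ang5 and Ang6 had 0 counts in every library, while Ang was read at 14.1 to 28.4 CPM and Rnase4 at 92.6 to 162 CPM. For Rnase1 the SISC libraries held 63.1 and 28.8 CPM, and the LISC libraries 5.19 and 5.88 CPM (log2 −3.05 ± 0.46, edgeR adjusted p = 0.0531). Of 15 tested relatives of the 10 genes (a list of lysozyme, ribonuclease, pentraxin, phospholipase, metalloproteinase and protease genes), 1 was called by edgeR (2.20% of all genes). DESeq2 called 5 of the 31 relatives with any count, where 1153 of all 24003 genes with any count were called (6.96% of those given an adjusted p). With limma-trend on log2(TPM + 1) 4 of 15 were called (3.71% of all genes). The edgeR call was Pla2g5, a secreted phospholipase gene, higher in SISC at 21.1 and 30.4 CPM against 2.59 and 3.47 CPM (log2 −3.07 ± 0.34, edgeR adjusted p = 0.0294). Another phospholipase gene, Pla2g10, went the other way without passing the test, with 1.38 and 0.281 CPM in SISC against 21.3 and 26.3 CPM in LISC (edgeR adjusted p = 0.0566). The call of Pla2g5 was not made by limma-trend on log2(TPM + 1) (log2 −2.13). The median log2 difference of the relatives was 0.46, and it ranged from 0.19 to 0.66 over the edgeR fits that left out 1 library.

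Genes of the Paneth lineage and of its signals to stem cells had a positive median difference, with single genes in both directions. Of 20 such genes, all tested, 0 were called by edgeR (2.20% of all genes). At an unadjusted p below 0.05 there were 9 (13.4% of all genes), 8 of them higher in LISC (8.73%). These 8 were Atoh1, Gfi1, Spdef, Dll4, Ern2, Agr2, Kit and Lrrk2, the last with 0 counts in both SISC libraries. Fzd5 was the 1 higher in SISC (4.67% of all genes). Estimates were also negative for Bhlha15 (log2 −1.99), Wnt3 (−1.53), Atg16l1 (−0.45) and Dll1 (−0.23), and near 0 for Sox9, Atg5 and Xbp1. The rest, Ephb3, Egf, Tgfa and Nod2, had positive estimates. DESeq2 called 7 (6.96% of the genes that it gave an adjusted p) and limma-trend on log2(TPM + 1) called 2 (3.71% of all genes), all higher in LISC. The median log2 difference was 0.80. It ranged from 0.59 to 1.09 over the edgeR fits that left out 1 library. Kit, Agr2, Spdef and Dll4 stand in both this list and the deep crypt secretory list. Atoh1, the factor gene that sets the secretory fate, had 6.55 and 2.47 CPM in SISC against 33.5 and 59.2 CPM in LISC (edgeR adjusted p = 0.0749). Sox9, a factor gene that Paneth cells require, had 134 and 186 CPM in SISC against 153 and 154 CPM in LISC. Wnt3, the Wnt ligand that Paneth cells supply, had 8.73 and 2.56 CPM in SISC against 1.58 and 2.27 CPM in LISC. Egf, the epidermal growth factor gene, had 2.11 and 0.500 CPM in SISC against 3.34 and 4.61 CPM in LISC. These 4 genes were chosen after their values were seen. Of 17 alpha-defensin genes tested, which are the main Paneth granule products, 4 were called by edgeR (2.20% of all genes), all higher in SISC (0.741%): Defa36, Defa26, Defa30 and Defa5. This count depended on the fit. It was 14 of the 22 with any count by DESeq2, where 1153 of all 24003 genes with any count were called (6.96% of those given an adjusted p). With limma-trend on log2(TPM + 1) it was 16 of 17 (3.71% of all genes). All of these calls were higher in SISC. Over the edgeR fits that left out 1 library, the median log2 difference of the alpha-defensins tested ranged from −9.47 to −5.57. Their reads are divided among near-identical copies, with a posterior standard deviation of up to 155 counts, and the median log2 difference of the 17 was −7.12.

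The genes whose pattern over the 4 libraries was most like that of Lyz1 were alpha-defensins. By Euclidean distance of centred log2 CPM among 6723 candidates with at least 10 TPM in a group, the nearest 5 were Defa22 (0.94), Defa2 (1.17), Defa3 (1.35), Defa23 (1.37) and Defa29 (1.41). A candidate could pass through the group where it was high, and the distance takes in the difference between the groups. The ranking is therefore a description and no evidence beyond the values above. The counts of these copies are uncertain, with a posterior standard deviation of up to 150 counts for Defa2. Of the listed genes, Itln1 ranked 10 for Lyz1, Mptx2 14, Mmp7 31 and Pla2g2a 81. Cd24a ranked 4677, Nupr1 6290 and Mptx1 6714, so the pattern of these genes was unlike that of Lyz1. Nearest to Ang4 were Atf3 (0.94), Pla2g2a (1.16), Csrnp1 (1.25), Clps (1.28) and Dusp5 (1.40). Atf3, a stress-response factor gene, had 566 and 92.1 CPM in the SISC libraries against 11.0 and 24.9 CPM in the others. Mmp7 ranked 9 for Ang4, and Lyz1 ranked 5669. The same distance between Lyz1 and Ang4, 5.43, put Ang4 at rank 68 for Lyz1.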

How the data were processed

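RNA was measured in 4 libraries, 2 of SISC and 2 of LISC, whose titles give group and replicate number. The libraries were strand-marking mRNA libraries, per the labels' protocols. The submitters' processing notes name STAR 2.7.2b, RSEM 1.2.31 and GRCm38 (mm10) without roles. No source used here gives the annotation release, trimming or strand setting. The authors deposited RSEM expected counts, which share ambiguous reads among genes, and TPM values, which are scaled by effective length. RSEM's posterior standard deviations stand beside them per the file headers.

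Identifiers were matched to GENCODE vM21 (55227 of 55487 had a symbol). The expected counts, rounded, entered edgeR 4.0.16 under R 4.3.3: a quasi-likelihood test of group alone, with TMM factors and filterByExpr (minimum count 10). The p-values were adjusted by Benjamini-Hochberg over 14165 genes. Standard errors are the log2 difference divided by the square root of F. Alternatives used DESeq2 1.42.0, limma 3.58.1 on log2(TPM + 1) or log2(TPM + 0.1), other size factors and filters, and fits without each library. A fit without 1 library assumes that the lone sample varies like the other group. The fits were checked on simulated counts with the same dispersion for every gene, no shared effect of replicate number and smaller folds than the largest here. That check does not cover the wide spread of these genes within a group. Totals of 12795434 to 27227715 counts put 3 counts at 0.0937 to 0.278 CPM. An exact permutation test of 2 against 2 libraries cannot go below p = 0.333. Sequences were aligned with Biopython 1.88.

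The 10 genes and the lists were chosen with earlier results of these data known. The text names all 10, up to 4 called genes per list and direction with the largest fold, and the 5 genes nearest in pattern to Lyz1 and to Ang4. Other genes given with values were chosen after these were seen.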

Additional observations from a re-analysis of the deposited data

How the results depend on the processing

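The count of the 10 genes called was 0 with edgeR, with other size factors and with rRNA genes left out. It was 8 with no filter on low counts, 1 with a stricter filter, 7 with DESeq2, 8 with limma-trend on log2(TPM + 1), 8 on log2(TPM + 0.1), and 2 to 5 when each library was left out. For all genes, 311 calls became 1407 with no filter, 1153 with DESeq2, 525 and 551 with limma-trend on log2(TPM + 1) and log2(TPM + 0.1), and 245 to 487 when each library was left out. With replicate number as a block, 6 of the 10 (Lyz1, Itln1, Mmp7, Mptx1, Mptx2 and Habp2) and 1539 of 14165 genes were called. Same-numbered libraries deviated together (r = 0.648 over genes), but with 2 pairs this cannot show that the numbers pair the samples, and the labels name no shared animal or day. Directions held for 8 of the 10 genes under all 12 alternatives. These were the genes whose libraries did not overlap between the groups, so a kept direction was largely set in advance. Without LISC replicate 2, Nupr1 reversed to −0.29 and Cd24a to −0.18; over the fits that left out each library they ranged from −0.29 to 2.43 and from −0.18 to 0.43. The cause of these changes was not tested. In LISC, Mptx2 and Habp2 rest on 1 to 4 counts per library, as does Mptx1 on 2 and 7 in SISC, so their folds are set by few reads.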

Other observations

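Neighbouring protein-coding genes gave values that belong to no comparison above. The nearest ones on either side of Mptx1 and Mptx2, the olfactory receptor genes Olfr419, Olfr417 and Olfr418 and the chemokine receptor gene Ackr1, had 0 counts in every library. Next to Habp2 lies Tcf7l2, the Wnt effector gene, 353 kb away, at 7.65 and 9.87 TPM in SISC and 8.37 and 10.3 TPM in LISC.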
